A study of Homo sapiens with 10 samples.

Results

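The genes examined were 50 human genes whose products build the kinetochore, the mitotic spindle and the condensed chromosome or time their separation. They were taken by gene symbol from a table of 46427 genes, and all 50 were found in it. By role, 10 encode inner kinetochore proteins, 8 outer kinetochore proteins, 5 spindle checkpoint proteins, 6 mitotic kinases or members of the chromosomal passenger complex, 6 proteins of sister chromatid cohesion and anaphase onset, 10 proteins of spindle assembly and cytokinesis, and 5 proteins of condensin or the chromosome surface.

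RNA sequencing was done on 10 libraries of the established human lung cancer cell lines H460 and A549, to compare cells that survived a drug, and cells grown as spheres, with 2D culture. For H460 there were 3 parental libraries from 2D culture, 1 library of cells that survived 4 µM cisplatin (CR), 2 of cells that survived 5 nM paclitaxel (PR 1 and PR 2), 1 of cells that survived 0.5 µM doxorubicin (DR) and 1 of tumor spheroid cells (TS). The A549 libraries were 1 of 2D culture and 1 of TS. The drugs were given for 3 days and replaced by fresh medium for 3 days before the cells were re-plated, so that the CR, PR and DR libraries hold only the cells that stayed alive and attached. TS cells were grown in suspension in medium with growth factors on coated plates and passaged 3 times, so medium and suspension cannot be told apart. The labels give no engineered allele for any group. Nothing in the labels says that replicates came from separate cultures, and p-values therefore measure the spread between these libraries, which may be technical.

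The kinetochore is the protein assembly on the centromere to which spindle microtubules attach. Checkpoint proteins at unattached kinetochores hold back the anaphase-promoting complex until every chromosome is attached, after which separase cuts cohesin and the sister chromatids part. Many of these genes are transcribed mainly in late S phase, G2 and mitosis, and their messages are low in cells that do not divide.

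Reads on genes numbered between 59499787 and 89541774 per library. The lowest count of any of the 50 genes was 43, for SGO1 in PR 2, and 13 of 500 values were under 100, so that counting error was small beside the differences described. The epithelial keratin genes KRT8 and KRT18 were between 190 and 3866 FPKM in every library. A further keratin gene, KRT19, was between 138 and 738 FPKM in H460 cells, but at 3.57 and 68.3 FPKM in A549 2D and TS. CDH1, encoding E-cadherin, was at or below 0.027 FPKM in H460 cells, and EPCAM was at or below 1.04 FPKM in both lines. FPKM counts fragments in relation to transcript length and library size, and levels are given in it throughout.

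In the cells that survived a drug, all 50 genes fell. The median fitted log2 fold change of the 4 drug-survived against the 3 parental libraries was -3.51, beside 0.06 over all 18398 genes tested, and single genes ranged from -0.80 for BUB3 to -4.39 for CENPF. Of the 50 genes, 50 were called lower and 0 higher at an adjusted p under 0.05 (edgeR quasi-likelihood test, Benjamini-Hochberg adjustment over all genes tested), whereas 15.3% of all genes tested were called lower and 18.5% higher. Each of the 50 genes was lower in every drug-survived library than in every parental library, which held for 13.6% of all genes tested. The ratio of the lowest parental to the highest drug-survived FPKM had a median of 3.52 over the 50 genes and was smallest, at 1.15, for BUB3.

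**Figure D1:**
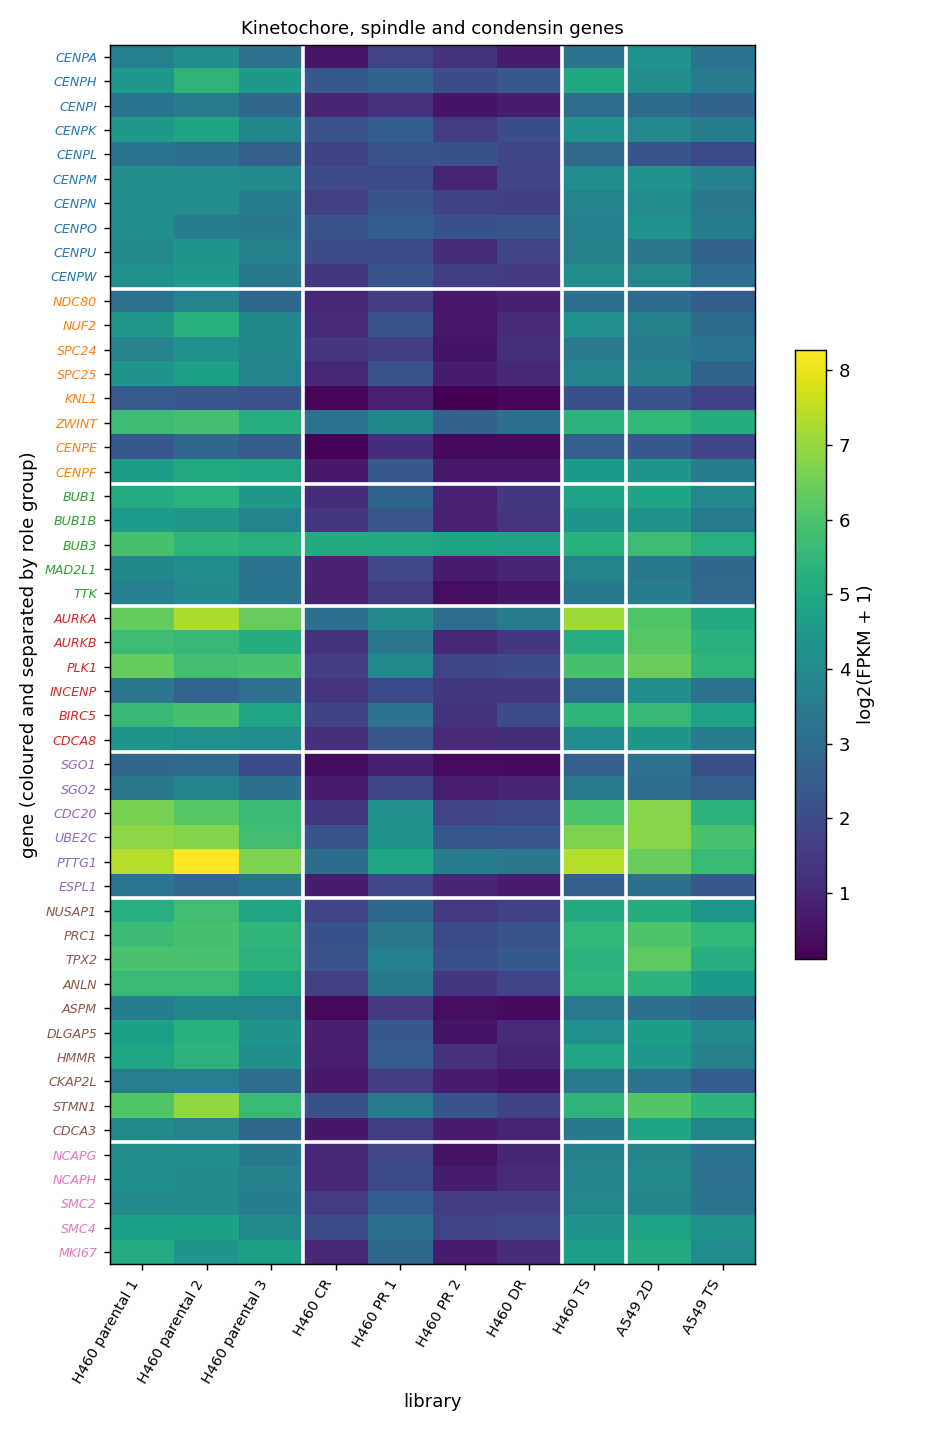
Level of each of the 50 genes (rows, coloured and separated by role) in each of the 10 libraries (columns), as log2(FPKM + 1) from dark for low to yellow for high. The 4 drug-survived columns are darker than the parental columns for every gene, least so for BUB3. Of the drug-survived columns, PR 1 is the lightest for most genes. The H460 sphere column stays close to the parental columns, and the A549 sphere column is somewhat darker than the A549 2D column.

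The measured messages are averages over each culture, and fewer cells that express a gene cannot be told apart from less of its RNA per cell. Levels of other genes also differed between these groups. Genes with at least 1 read numbered 21036 to 21603 in the parental libraries and 22720 to 26745 in the drug-survived ones. Of the blood cell markers, CD14 was at 2.78 to 9.49 FPKM in the parental and 11.5 to 17.1 FPKM in the drug-survived libraries, whereas PTPRC, CD3E and HBB stayed at or below 0.313 FPKM. The summed FPKM of 5 fibroblast markers was 1.29 to 6.00 in the parental and 6.05 to 19.6 in the drug-survived libraries, with COL1A2 at or below 0.042 FPKM. The summed FPKM of 4 endothelial markers was at or below 0.148 in these 7 libraries. The part of these shifts in the result was not tested.

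The library names in the labels have 2 written forms, apart from an ending "exp" found only in the name of PR 1. Parental and drug-survived libraries are found under both forms. In the form shared by parental 1, parental 3 and PR 1, all 50 genes were lower in PR 1 than in the parental mean, with a median difference of -1.88 in log2(FPKM + 1). In the form shared by parental 2, CR, PR 2 and DR, all 50 were lower in the drug-survived mean than in parental 2, with a median difference of -3.21. The share of all genes that were lower within each form was not computed.

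The inner kinetochore genes encode the centromeric histone CENPA and the CENP proteins that bind its chromatin. All 10 fell, by a median of 2.77 on the log2 scale, which was the smallest median of the 7 role groups. CENPH (chr5:69189583-69210357, GRCh38), a subunit of the constitutive centromere network, was at 21.0, 42.3 and 21.9 FPKM in parental 1, 2 and 3, and at 4.12, 5.37, 3.21 and 4.26 FPKM in CR, PR 1, PR 2 and DR. The drug-survived libraries lay close together and below all parental ones, and CENPH changed by -2.83 ± 0.27 (SE of the log2 fold change, adjusted p = 0.00019). CENPN (chr16:81007214-81033107), which recognises CENPA nucleosomes, was at 15.7, 15.6 and 10.9 FPKM in the parental libraries and at 2.18, 3.87, 2.32 and 2.08 FPKM in the same 4 drug-survived libraries. The groups did not overlap, and the change was -2.29 ± 0.24 (adjusted p = 0.000245). CENPU (chr4:184694085-184734096), the docking partner of the kinase PLK1, was at 14.3, 20.02 and 11.6 FPKM in parental and at 2.94, 2.90, 1.28 and 2.42 FPKM in drug-survived libraries. PR 2 was its lowest library, and CENPU changed by -2.76 ± 0.31 (adjusted p = 0.000278). The smallest falls of this group were those of CENPL and CENPO, at -1.41 and -1.71.

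The outer kinetochore holds the NDC80 complex, the KNL1 scaffold and the large proteins CENPE and CENPF that contact microtubules. All 8 genes fell, with a median log2 fold change of -3.66. SPC24 (chr19:11145493-11155782), an NDC80 complex subunit, was at 12.3, 18.5 and 13.6 FPKM in the parental libraries and at 1.58, 2.08, 0.497 and 1.29 FPKM in CR, PR 1, PR 2 and DR. PR 2 stood lowest of all libraries, and the fitted change was -3.56 ± 0.39 (adjusted p = 0.000272). ZWINT (chr10:56357227-56361273), a partner of KNL1, had the highest levels of the group, at 51.9, 56.1 and 35.4 FPKM in parental and 8.36, 13.5, 5.46 and 7.76 FPKM in drug-survived cells. Its change, -2.54 ± 0.28 (adjusted p = 0.000288), was the smallest of the 8. CENPF (chr1:214603195-214664571) was at 24.5, 32.3 and 29.7 FPKM in parental libraries and at 0.572, 4.27, 0.595 and 0.610 FPKM in CR, PR 1, PR 2 and DR. CR, PR 2 and DR were nearly equal and PR 1 was 7.00 times the highest of them, while the change over all libraries was -4.39 ± 0.70 (adjusted p = 0.00138).

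Of the spindle checkpoint genes, 5 of 5 fell, but not alike. TTK (chr6:80004649-80042527), the kinase that starts checkpoint signalling, was at 11.4, 14.4 and 8.72 FPKM in the parental libraries and at 0.855, 1.89, 0.328 and 0.548 FPKM in CR, PR 1, PR 2 and DR. The highest of these, PR 1, was still below the lowest parental library by 4.61-fold, and TTK changed by -3.72 ± 0.45 (adjusted p = 0.000391). MAD2L1 (chr4:120055623-120066848), encoding the inhibitor MAD2, was at 13.6, 15.6 and 8.47 FPKM in parental and 0.881, 2.62, 0.699 and 0.934 FPKM in drug-survived libraries. It changed by -3.40 ± 0.42 (adjusted p = 0.000417), and BUB1 and BUB1B by -3.83 and -3.39. BUB3 (chr10:123154402-123170467), the adaptor that brings BUB1 and BUB1B to the kinetochore, was the exception in size. It was at 58.2, 43.1 and 38.5 FPKM in the parental libraries and at 33.4, 32.1, 28.6 and 27.2 FPKM in CR, PR 1, PR 2 and DR. The groups did not overlap, but the gap was narrow, and the change of -0.80 ± 0.17 (adjusted p = 0.00513) was the smallest of the 50.

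All 6 genes of the mitotic kinases and the chromosomal passenger complex fell, with a median of -3.60. AURKA (chr20:56369390-56392215), the Aurora kinase of the spindle poles, was at 80.1, 154 and 81.6 FPKM in parental and at 7.47, 14.5, 7.30 and 10.0 FPKM in CR, PR 1, PR 2 and DR. Parental 2 was by far the highest parental library, and no drug-survived library came near the other parental ones. AURKA changed by -3.49 ± 0.31 (adjusted p = 0.000138, the smallest of the 50). CDCA8 (chr1:37692516-37709719), the borealin subunit of the passenger complex, was at 19.99, 17.4 and 15.7 FPKM in parental libraries and at 1.29, 4.002, 1.16 and 1.26 FPKM in the drug-survived ones. PR 1 stood above the other 3, which were nearly equal, and CDCA8 changed by -3.32 ± 0.40 (adjusted p = 0.000391). Its partners AURKB and BIRC5 changed by -3.81 and -3.71, and INCENP, the scaffold of the same complex, by -2.19. PLK1, which acts at poles, kinetochores and midzone, changed by -3.74.

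The genes of cohesion and anaphase onset fell in 6 of 6 cases, with a median of -3.69. SGO1 (chr3:20160593-20186886), the shugoshin that shields centromeric cohesin, was at 5.99, 6.51 and 3.12 FPKM in the parental libraries and at 0.296, 0.785, 0.262 and 0.255 FPKM in CR, PR 1, PR 2 and DR. All drug-survived libraries were under 1 FPKM, and the change was -3.75 ± 0.43 (adjusted p = 0.00031). PTTG1 (chr5:160421855-160428744), encoding the separase inhibitor securin, was the most abundant of the 50 in the parental libraries, at 163, 310 and 103 FPKM, and was at 7.04, 29.4, 11.0 and 9.18 FPKM in the drug-survived ones. It changed by -3.80 ± 0.47 (adjusted p = 0.000409), and ESPL1, encoding separase itself, by -2.88. CDC20 (chr1:43358981-43363203), the activator of the anaphase-promoting complex in mitosis, was at 96.8, 69.0 and 48.7 FPKM in parental and 1.70, 17.4, 2.33 and 2.69 FPKM in CR, PR 1, PR 2 and DR. With PR 1 at 6.48 times the next drug-survived library its spread was wide, and the change was -3.71 ± 0.72 (adjusted p = 0.00387). UBE2C (chr20:45812644-45816952), the ubiquitin-conjugating enzyme of that complex, was at 115, 107 and 53.9 FPKM in parental and 3.79, 19.2, 4.08 and 4.02 FPKM in drug-survived libraries. PR 1 again stood alone, and UBE2C changed by -3.68 ± 0.56 (adjusted p = 0.00111).

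Among the spindle assembly and cytokinesis genes, all 10 fell, with a median of -3.66, and none by less than 3.23 on the log2 scale. NUSAP1 (chr15:41332881-41381046), which bundles microtubules near chromosomes, was at 36.7, 53.5 and 28.8 FPKM in parental and at 2.39, 6.12, 1.85 and 2.19 FPKM in CR, PR 1, PR 2 and DR. PRC1 (chr15:90966040-90994535), the bundler of the central spindle, was at 50.5, 58.6 and 42.9 FPKM in parental and at 3.48, 9.12, 2.81 and 3.61 FPKM in drug-survived libraries. For both genes PR 1 was the highest drug-survived library and the groups did not overlap, and the changes were -3.76 ± 0.40 (adjusted p = 0.000245) and -3.53 ± 0.37 (adjusted p = 0.000245). ASPM (chr1:197084127-197146669), a spindle pole protein, was at 10.6, 13.4 and 12.9 FPKM in parental and at 0.217, 1.84, 0.315 and 0.239 FPKM in drug-survived libraries. It changed by -4.37 ± 0.69 (adjusted p = 0.00133), second in size to CENPF. TPX2, the activator of Aurora A on the spindle, changed by -3.37, DLGAP5, a stabilizer of kinetochore fibres, by -4.20, and STMN1, the tubulin-sequestering protein stathmin, by -4.08.

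The condensin and chromosome surface genes also fell in 5 of 5 cases, with a median of -3.49. NCAPH (chr2:96335766-96377091), the kleisin subunit of condensin I, was at 17.1, 15.3 and 12.0 FPKM in parental and at 1.08, 2.83, 0.683 and 1.14 FPKM in CR, PR 1, PR 2 and DR. NCAPG (chr4:17810979-17844865), another condensin I subunit, was at 16.1, 16.4 and 9.74 FPKM in parental and at 1.02, 2.59, 0.441 and 0.985 FPKM in drug-survived libraries. For both genes PR 1 was the highest and PR 2 the lowest drug-survived library, with CR and DR close together between them, and they changed by -3.49 ± 0.42 (adjusted p = 0.000373) and -3.58 ± 0.47 (adjusted p = 0.000543). SMC2 and SMC4, the ATPase subunits that condensin I shares with condensin II, changed less, by -2.49 and -2.67. MKI67, encoding the chromosome coat protein Ki-67 used as a marker of proliferation, changed by -3.70.

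**Figure D2:**
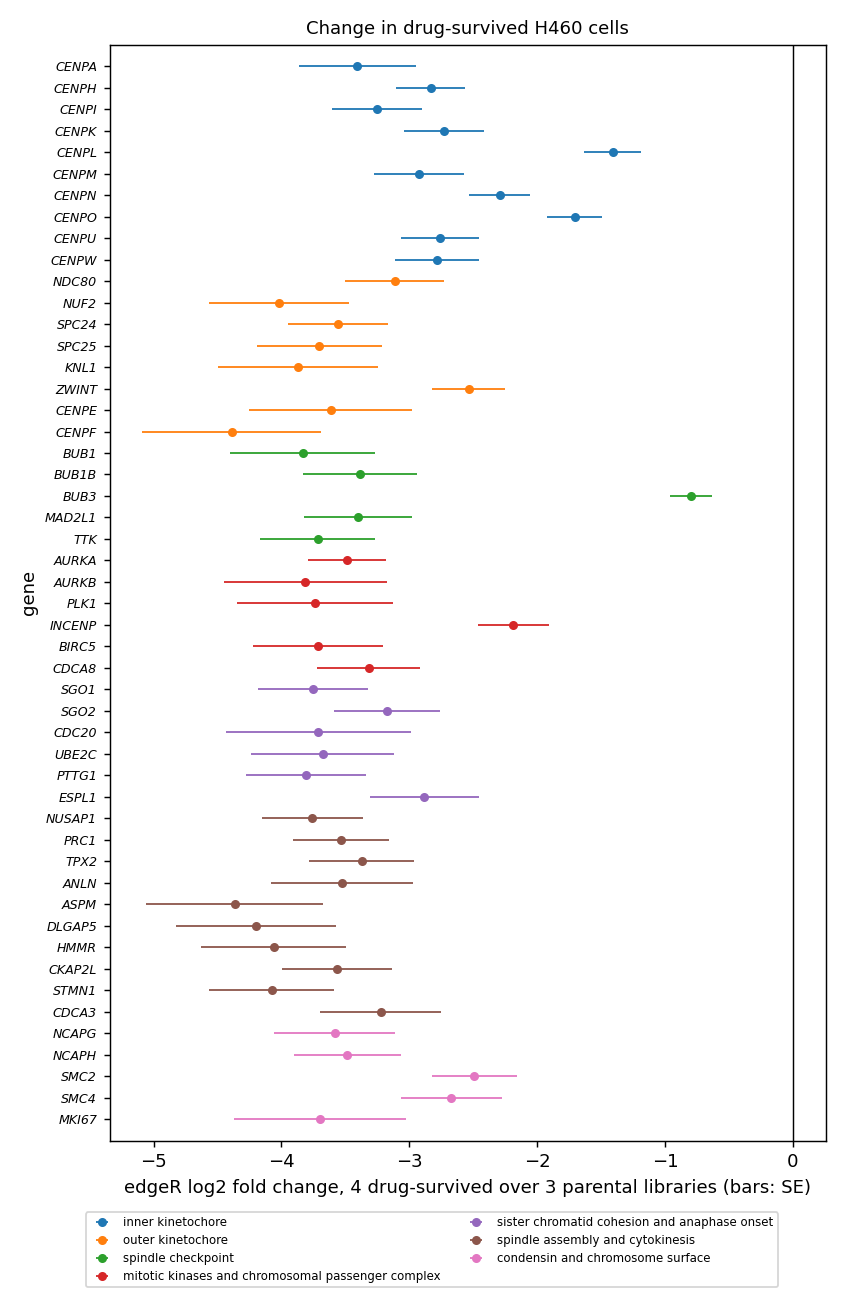
Fitted edgeR log2 fold change of each of the 50 genes (points, coloured by role) in the 4 drug-survived over the 3 parental libraries, with bars for 1 standard error. All points lie left of 0, most near -3.51, and BUB3, CENPL and CENPO lie nearest to 0.

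For each drug alone, no p-value can be given where there was 1 library, and levels are set against the mean of the 3 parental libraries. Differences were taken in log2(FPKM + 1), so that the change of genes with low levels is understated. In CR, 49 of the 50 genes were more than 2-fold below that mean, beside 4.85% of all genes tested. The genes were at a median of 6.95% of the parental mean in CR, between 1.77% and 71.6%. In DR, 49 were more than 2-fold below it, beside 3.91% of all genes tested, and the median level was 7.11%. For the mean of PR 1 and PR 2 the number was 48, beside 4.05%. On this scale only BUB3 stayed within 2-fold of the parental mean in CR and DR, and BUB3 and CENPL did so in PR. In FPKM, CENPL was at 51.3% of the parental mean in PR 1 and 47.8% in PR 2.

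The 2 PR libraries could be tested against the parental ones. All 50 genes were called lower, beside 10.6% of 19430 genes tested (edgeR, adjusted p under 0.05), and 0 higher, beside 17.5%, with a median log2 fold change of -3.17 and a range from -0.83 for BUB3 to -3.76 for CENPF. The call of BUB3, at an adjusted p of 0.0325, did not hold in 7 of the alternative settings, with an adjusted p of up to 0.301. Without PR 2, where PR 1 is set alone against parental libraries that supply all of the spread, 43 genes were called, and the 7 that were not were CENPL, CENPN, CENPO, CENPW, BUB3, INCENP and SMC4. Without PR 1, CENPL and BUB3 were not called, without parental 1, BUB3 was not, and without parental 2, BUB3 and CDC20 were not (edgeR, adjusted p = 0.0521 for CDC20). These genes were named after their values were seen.

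The PR libraries differed from each other. PR 1 was the highest of the 4 drug-survived libraries for 48 of the 50 genes, which held for 29.1% of all genes tested, and it was more than 2-fold above each of the others for 34, which held for 1.07%. The median level of the 50 genes was 19.8% of the parental mean in PR 1 and 5.56% in PR 2. The ratio of PR 1 to PR 2 had a median of 3.38 and ran from 1.07 for CENPL to 10.3 for KNL1, beside a median of 0.94 over all genes tested. Since PR 1 is a single library these are descriptions, with no test. PR 1 nevertheless lay below the lowest parental library for every one of the 50 genes, at a median of 0.284 of its level.

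The 3 genes for which PR 1 stood farthest above the next drug-survived library were CENPF, CDC20 and ASPM, at 7.00, 6.48 and 5.86 times. By role, all 6 genes of cohesion and anaphase onset, all 10 of spindle assembly and cytokinesis and all 5 of condensin and the chromosome surface were over 2-fold higher in PR 1 than in each other drug-survived library. In the inner kinetochore group 0 of 10 were, although PR 1 was the highest for 9 of them. CENPU was at 2.94 FPKM in CR and 2.90 in PR 1, and BUB3 at 33.4 in CR and 32.1 in PR 1, and these were the only genes of the 50 not highest in PR 1. PR 1 shares the form of its library name with parental 1 and parental 3, and the other drug-survived libraries share theirs with parental 2. The name of PR 1 alone also ends in "exp", which the labels do not explain. The part of either in the difference was not tested. PR 1 had 73958243 reads on genes and PR 2 59499787, the fewest of all libraries, with 25781 and 26133 genes with reads. The part of depth was not tested either.

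**Figure D3:**
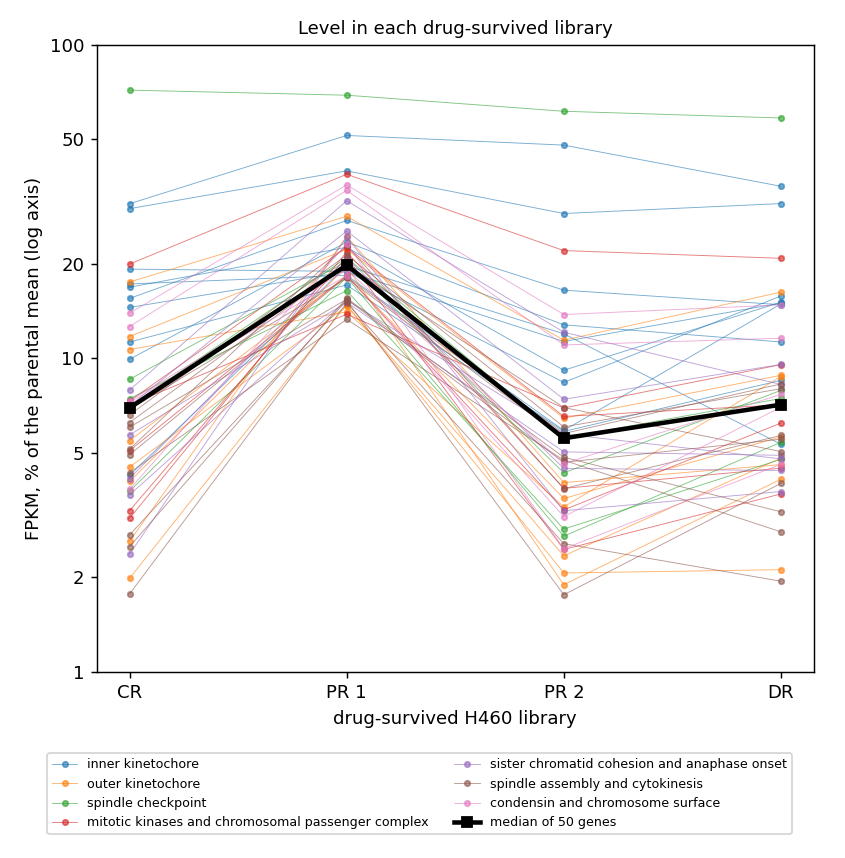
FPKM of each of the 50 genes in the 4 drug-survived libraries as a percentage of its mean over the 3 parental libraries, on a log axis, with thin lines joining the values of 1 gene (coloured by role) and the black line the median. The median was 6.95% in CR, 19.8% in PR 1, 5.56% in PR 2 and 7.11% in DR, and the uppermost line is BUB3.

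To place the 50 genes, 82 other genes of mitosis were read in the same fit, in 5 lists. Of the 82, 59 were called lower and 1 higher, with a median log2 fold change of -1.42, beside -3.51 for the 50. The lists differed. Of 25 other kinetochore genes, 19 fell and 1 rose, with a median of -1.70. The largest falls were those of SKA1 and SKA3, subunits of the complex that tracks microtubule ends, both at -3.49. CENPT, an inner kinetochore protein that recruits the NDC80 complex, rose by 0.62 ± 0.16 (adjusted p = 0.0134). It was at 17.8, 18.4 and 15.5 FPKM in the parental libraries and at 25.7, 30.7, 29.6 and 22.5 FPKM in CR, PR 1, PR 2 and DR, so that all drug-survived libraries were above all parental ones.

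Of the 4 other condensin genes, all fell, with a median of -2.33. The largest falls were those of NCAPG2, at -2.96, and NCAPD2, at -2.65, and NCAPH2, a condensin II subunit, changed by -0.69. Of 13 cohesin genes, 10 fell, with a median of -0.94. The largest were those of ESCO2, the acetyltransferase that establishes cohesion in S phase, at -3.10, and CDCA5, encoding sororin, at -2.99, whereas the ring subunits SMC1A, SMC3 and RAD21 changed by -1.49, -1.90 and -1.59. MAU2, a cohesin loader, had a fitted change of 0.55 that did not pass (adjusted p = 0.0736).

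Of 16 genes of the anaphase-promoting complex and its partners, 5 fell and 11 did not pass, with a median of -0.39. The largest falls were those of UBE2S, the enzyme that extends its ubiquitin chains, at -2.35, and ANAPC1, its largest scaffold subunit, at -1.01. FZR1, an activator of the complex like CDC20, was at 6.14, 5.75 and 6.90 FPKM in parental and at 5.16, 5.06, 5.34 and 5.07 FPKM in CR, PR 1, PR 2 and DR. It did not pass the test (-0.36 ± 0.16, adjusted p = 0.108), although the groups did not overlap, and it was singled out after its values were seen. Of the 16 genes, every drug-survived library was below every parental one for 5 and above for 2. These 2, ANAPC2 and CDC16, did not pass either (adjusted p = 0.153 and 0.586, edgeR). Over all 18398 genes tested, 2511 lay wholly below and 4750 wholly above. Of 24 other spindle and cytokinesis genes, 21 fell, with a median of -1.75. The largest falls were those of NEK2, a centrosome kinase, at -4.24, and PIMREG, at -3.65, and NUMA1, a pole-focusing protein, had a fitted change of 0.16 that did not pass (adjusted p = 0.667).

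**Figure D4:**
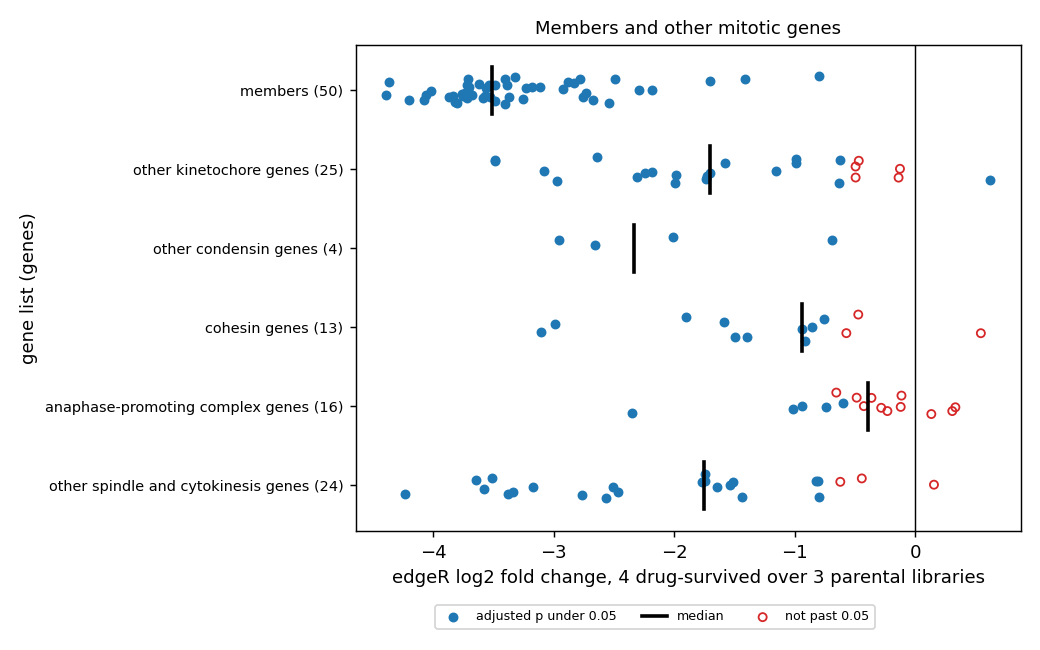
Fitted edgeR log2 fold change in the 4 drug-survived over the 3 parental libraries for the 50 genes (top row) and the genes of 5 other mitotic lists, 1 point a gene, filled where the adjusted p was under 0.05 and open where it was not. Black bars mark the medians, from -3.51 for the 50 genes to -0.39 for the anaphase-promoting complex, and the only filled point right of 0 is CENPT.

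Because the 50 genes moved together, their promoters were read from the RefSeq table (GRCh38.p14), from 250 bases before to 50 after each start site. It held 48 promoters of 40 of the 50 genes. The cell cycle genes homology region (CHR, TTTGAA or TTCGAA) and the CCAAT box are elements known from promoters of genes transcribed in G2 and mitosis, and GCGGGAA was searched as an E2F-type core, all on both strands. A CHR was found for 30 of the 40 genes (75%), beside 15.9% of 13134 tested genes with a promoter in the table. A CCAAT box was found for 30 of the 40 (75%), beside 42.1%, and both motifs for 55%, beside 6.67%. The E2F-type core was found for 6 of the 40 (15%), beside 11.8%. Of the other mitotic genes, 71 had a promoter in the table, with a CHR for 36.6%, a CCAAT box for 49.3%, both for 18.3% and the E2F-type core for 33.8%. Of the 2141 other tested genes that fell, the core was found for 19.0% and a CHR for 18.1%. For 27 of the 40 genes (67.5%) a CHR began within 50 bases of a start site, a window chosen after the positions were seen, beside 4.84% of the tested genes.

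The 30 genes with a CHR had a median log2 fold change of -3.53 in the drug-survived cells and the 10 without one a median of -3.52. Bases directly upstream of the start site are shown for 5 genes. CDC20, MKI67, ESPL1 and ASPM are shown since they hold both motifs, and SPC24 since it holds CCAAT boxes and no CHR. Each runs 5′ to 3′ along the strand of the gene, 150 bases, and ends at the base before the start, and capitals mark CHR and CCAAT motifs on either strand (TTCAAA and ATTGG where they lie on the opposite strand).
CDC20, chr1:43358831-43358980, plus strand: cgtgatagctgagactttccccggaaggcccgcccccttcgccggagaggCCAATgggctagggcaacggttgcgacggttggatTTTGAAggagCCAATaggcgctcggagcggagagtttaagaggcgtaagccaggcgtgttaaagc
MKI67, chr10:128126424-128126573, minus strand: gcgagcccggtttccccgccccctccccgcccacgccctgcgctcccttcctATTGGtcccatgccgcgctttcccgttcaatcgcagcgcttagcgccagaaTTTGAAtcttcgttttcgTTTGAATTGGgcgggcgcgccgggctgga
ESPL1, chr12:53268149-53268298, plus strand: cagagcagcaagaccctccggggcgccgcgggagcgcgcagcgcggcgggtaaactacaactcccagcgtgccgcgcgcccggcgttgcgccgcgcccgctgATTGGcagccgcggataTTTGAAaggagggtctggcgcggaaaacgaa
ASPM, chr1:197146670-197146819, minus strand: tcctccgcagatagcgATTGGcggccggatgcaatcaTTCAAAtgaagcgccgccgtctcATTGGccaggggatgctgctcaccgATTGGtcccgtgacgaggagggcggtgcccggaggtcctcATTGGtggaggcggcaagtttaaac
SPC24, chr19:11155783-11155932, minus strand: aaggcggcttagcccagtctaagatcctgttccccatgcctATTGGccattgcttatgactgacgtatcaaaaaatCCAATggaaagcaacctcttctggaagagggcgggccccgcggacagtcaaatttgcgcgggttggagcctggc

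In the promoters shown, the CHR of ESPL1 begins 31 bases before the start and those of MKI67 at 47 and 29 bases, where the nearer one overlaps a reversed CCAAT box by 1 base. In CDC20 the CHR lies between CCAAT boxes, and in ASPM 4 reversed CCAAT boxes are spread over the stretch. The genes ran from -2.88 for ESPL1 to -4.37 for ASPM in the drug-survived cells, and SPC24, at -3.56, lay between them. These matches are descriptions of letters in this window and were not tested as sites.

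In sphere culture the 50 genes differed far less from 2D culture. With the TS libraries of both lines against their 2D libraries and the cell line as a covariate, the median log2 fold change was -0.34, beside -0.01 over 18372 genes tested. Without H460 TS the median over the 50 was -0.70, and without either A549 library it was -0.15. None of the 50 was called lower or higher by edgeR, beside 0.0435% and 0.147% of all genes tested, and adjusted p-values ran from 0.580 upwards. At an unadjusted p under 0.05 the edgeR count was 1 lower and 0 higher, beside 2.98% and 4.44% of all genes tested. The 1 gene, named after its value was seen, was ESPL1, at -0.68 ± 0.26 (adjusted p = 0.580). DESeq2 and limma called 0 as well, with 8 and 1 at an unadjusted p under 0.05. The shares of all genes at that unadjusted p were not computed for DESeq2 and limma. At an adjusted p under 0.05, DESeq2 called 226 of 18372 genes lower and 311 higher. Limma on log2(FPKM + 1) called 8 of 12674 lower and 21 higher. All 50 changes fitted by edgeR were below 0, as were 51.2% over all genes tested. With 1 TS library a line, the test rests on 2 libraries of spheres.

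The lines differed in the sizes. In H460, the TS library fell inside the parental range for 42 of the 50 genes, below it for 8 and above it for 0, beside 57%, 22.2% and 20.9% of all genes tested. The median level was 87.8% of the parental mean, and 0 of the 50 were over 2-fold below it, beside 1.33%, while 36 were below it by any amount, beside 49.7%. In A549, where the 2D library is single, all 50 genes were lower in TS than in 2D culture, beside 51.9% of all genes tested, and 7 were over 2-fold lower in log2(FPKM + 1), beside 2.04%. These 7 were CENPA, BUB1, SGO1, CDC20, TPX2, CDCA3 and MKI67. The A549 TS levels had a median of 59.1% of the 2D levels, between 36.7% and 89.1%. The difference between the lines has no replicate check and was not tested.

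STMN1 and DLGAP5 were the genes farthest below the parental mean of log2(FPKM + 1) in H460 TS. STMN1 (chr1:25884179-25906880) was at 65.2, 121 and 47.9 FPKM in the parental libraries, at 42.3 FPKM in H460 TS, and at 66.6 and 40.9 FPKM in A549 2D and TS. DLGAP5 (chr14:55148135-55191585) was at 26.0, 37.8 and 19.3 FPKM in parental, 17.3 FPKM in H460 TS, and 24.1 and 14.2 FPKM in A549 2D and TS. Both lay just below the lowest parental library in H460, and neither passed the test (adjusted p = 0.786 and 0.679, edgeR).

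AURKA and UBE2C were the genes farthest above that mean in H460 TS, at 139 and 101 FPKM, and both lay within the parental range. In A549 they were at 66.4 and 113 FPKM in 2D culture and at 33.1 and 59.4 FPKM in TS, so that the lines moved opposite ways. Their fitted changes over both lines were -0.09 ± 0.39 and -0.23 ± 0.35 (adjusted p = 1 for both, rounded, edgeR), and the sign of both turned when either A549 library was left out, as did that of AURKA without parental 2.

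In A549, CDC20 and TPX2 differed most in log2(FPKM + 1), CDC20 with 111 FPKM in 2D and 40.6 in TS, and TPX2 (chr20:31739290-31801800) with 75.3 and 35.8. In H460 TS they were at 61.8 and 40.8 FPKM, inside parental ranges of 48.7 to 96.8 and 40.2 to 60.6. ASPM and SPC24 differed least on that scale in A549, at 7.65 and 6.05 FPKM and at 9.93 and 8.84 FPKM in 2D and TS. Both were below the parental range in H460 TS, at 10.1 and 9.78 FPKM beside lowest parental levels of 10.6 and 12.3 FPKM. None of these 4 genes passed the test over both lines, with adjusted p-values of 0.910 for CDC20, 0.683 for TPX2, 1 for ASPM and 0.937 for SPC24 (edgeR).

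**Figure D5:**
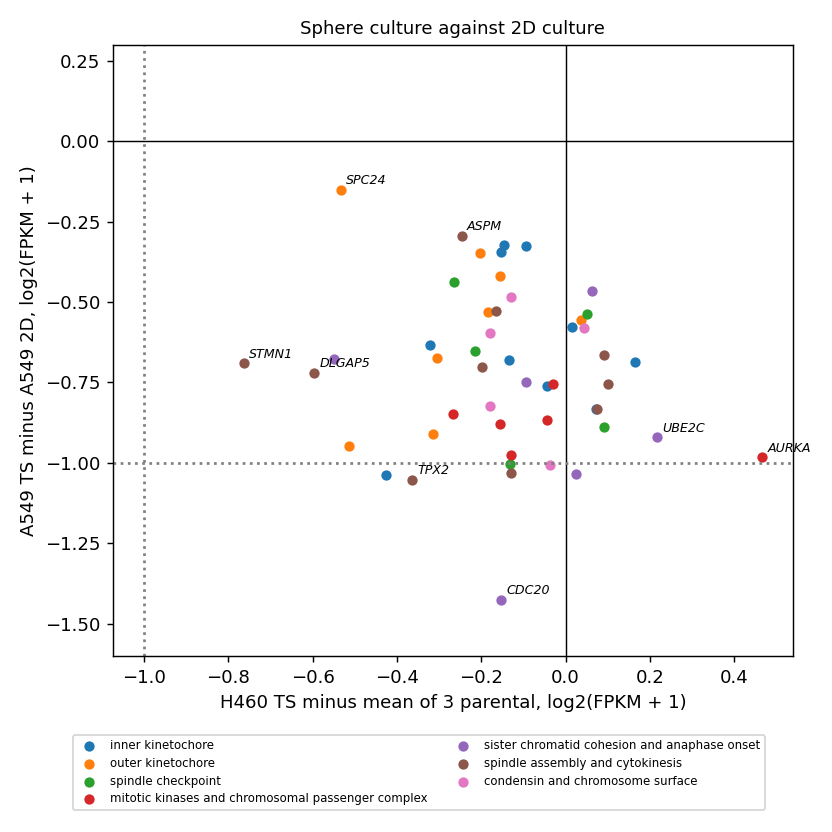
Difference of each of the 50 genes (points, coloured by role) between TS and 2D culture in log2(FPKM + 1), for H460 against the mean of 3 parental libraries (horizontal) and for A549 against 1 library (vertical), with dotted lines at 2-fold below. All points lie below 0 for A549 and 36 of 50 lie left of 0 for H460, and CDC20 stands lowest for A549.

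The untreated 2D cultures of the lines were alike in the middle of the 50 genes but not gene by gene. A549 2D was at a median of 92.4% of the H460 parental mean, with 25 genes within the H460 range, 12 below and 13 above, beside 31%, 31.3% and 37.7% of all genes tested. PTTG1, at 83.6 FPKM in A549 2D and 103 to 310 FPKM in H460, was the lowest in relation to H460, and CDCA3, which promotes entry into mitosis, the highest, at 28.3 FPKM beside 6.27 to 15.3. None of the 8 outer kinetochore genes and 4 of the 6 kinase and passenger complex genes were above the H460 range.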

How the data were processed

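Poly(A) RNA libraries were made with a TruSeq kit. Per the labels, reads were handled with bcl2fastq 1.8.4, Trimmomatic, HISAT2 2.1.0 and StringTie 2.1.3b on GRCh38. The authors deposited a read count per gene without normalization, and an FPKM value normalized for transcript length and library size. In every library more genes held 2 reads than 1, so that a count may not be 1 independent read. How reads shared by overlapping genes were counted is not given in the sources used here. Positions are from RefSeq on GRCh38.p14, matched by gene ID.

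Counts were compared with edgeR 4.0.16 in R 4.3.3 (TMM, filterByExpr with a minimum count of 10, glmQLFit and glmQLFTest, Benjamini-Hochberg threshold 0.05), fitted on all genes. The fits were 4 drug-survived against 3 parental libraries, whose spread includes differences between drugs, 2 PR against 3 parental, and TS against 2D with cell line as a covariate. FPKM were described as levels. Alternatives were DESeq2 1.42.0, upper-quartile normalization, no filter, limma 3.58.1 on log2(FPKM + 1) and log2(FPKM + 0.1), each library left out, the form of the library name as a covariate, and the replicate number as a block. The fits were tested on simulated data.

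The 50 genes, the lists and the tests were chosen with earlier results of these data known. Values in each library are given for the 2 genes of each role group with the smallest adjusted p in drug-survived cells, the 3 with the highest ratio of PR 1 to the other drug-survived libraries, those not highest in PR 1, and the 2 at each end in each TS comparison. CR A549 cells were not analysed here. A marker of the blood cell list is not reported here.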

Additional observations from a re-analysis of the deposited data

Results flagged for a closer look

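In the drug-survived cells, CR, PR 1, PR 2 and DR were taken as a group of 4, although they come from different drugs. For 24 of the 50 genes the highest library lay apart from the others by more than Dixon's 95% critical value. It was PR 1 for all 24. The share of all genes set apart by this value was not computed. PR 1 was the highest of the 4 for 29.1% of all genes tested. The lowest library was not apart for any of the 50. Chance sets a library apart in about 1 of 20 groups of like replicates. That rate does not carry over to these libraries of different drugs. The genes are also not independent, since they share the same libraries. The higher level in PR 1 was known beforehand, so these counts are descriptions, with no test. Among the 23 genes given with values in each library, 12 had PR 1 apart by more than the critical value. In PR 1, the kinetochore genes CENPN and CENPF were at 3.87 and 4.27 FPKM, the checkpoint gene MAD2L1 at 2.62 FPKM and the passenger complex gene CDCA8 at 4.002 FPKM. Of the genes of cohesion and anaphase onset, SGO1 was at 0.785, CDC20 at 17.4 and UBE2C at 19.2 FPKM. The spindle genes NUSAP1, PRC1, TPX2, ASPM and DLGAP5 were at 6.12, 9.12, 11.5, 1.84 and 4.23 FPKM.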

How the results depend on the processing

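In the drug-survived cells, 50 of the 50 genes were called lower and 0 higher under each of the 13 alternatives, including 50 to 50 with any 1 library left out. Upper-quartile normalization moved the median over all genes from 0.06 to 0.23 (log2) and that of the 50 from -3.51 to -3.34, and the calls over all genes from 2823 lower and 3397 higher to 2032 lower and 4210 higher. In PR cells, the number called lower ran from 43 to 50 with a library left out, was 43 without PR 2, and was 49 with upper-quartile normalization and with limma at either pseudocount. With replicate numbers 1 and 2 as a block it was 50. Differences between those replicates correlated at r = 0.156 across 12496 genes in parental and PR cells, and with 2 pairs and no label of a shared origin the libraries share only a number.

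For TS against 2D culture, 0 genes were called lower or higher under all 11 alternatives, and 0 to 0 with a library left out. With a library left out, the change of AURKA ran from -0.97 without H460 TS to 0.06 without parental 2 and 0.43 without A549 2D or A549 TS, and that of UBE2C from -0.88 without H460 TS to 0.17 without either A549 library, against -0.09 and -0.23. With parental 2 alone as the control, 3 genes were more than 2-fold below it in H460 TS in place of 0. The cause was not tested. CR, DR and each TS culture have 1 library a line, and differences between them have no replicate check.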
